A study of Mus musculus with 24 samples.

Results

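Keratins are the intermediate filament proteins of epithelial cells, and 7 keratin genes were followed here in sorted tumour cells of 2 mouse lung cancer lines. They were Krt8, Krt18, Krt7, Krt19 and Krt20 of simple epithelium and Krt5 and Krt14 of the basal layer of stratified epithelium. The genes were taken by name, and all 7 were present among the 31618 genes of the LLC1 table and the 36040 genes of the KP table. A filament is built from pairs of an acidic type I keratin and a basic type II keratin, so that the partners are usually made together. The mix of keratins differs between epithelia and is used in pathology to describe the origin and differentiation of carcinomas. Krt8 and Krt18 form the earliest pair of the embryo and of single-layered epithelium, including that of the lung alveolus and airway.

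RNA was sequenced from 24 libraries, 3 for each of 8 groups. The Lewis lung carcinoma line (LLC1) gave relapsed tumours, tumours exposed to chronic low-level interferon gamma (chronic IFNG) and parental tumours. The KP line, from a genetically engineered mouse model of lung cancer, gave 1st relapse, 2nd relapse, late relapse, chronic IFNG and parental tumours. Relapsed here means relapsed under immune checkpoint blockade, per the series' design text, and the labels list no treatment for any of the samples themselves. Mice were injected with the tumour cells of each group, tumours were taken at day 15, and live cells without the leukocyte marker CD45 were sorted. The gate selects against leukocytes but not against fibroblasts, endothelial cells or other host cells. The labels call the 3 libraries biological replicates without saying whether they came from separate animals, so p-values measure the spread between these libraries.

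The estimated depth was 13.3 to 34.9 M fragments per LLC1 library and 13.7 to 32.7 M per KP library. The tables were normalised separately, so levels were not compared between lines. Summed counts of 11 fibroblast markers were 66951 to 92154 in 1st relapse, 2224 to 3038 in 2nd relapse, 14109 to 64129 in late relapse and 11442 to 33939 in chronic IFNG KP libraries, against 16757 to 25844 in parental KP libraries. In LLC1 they were 304524 to 337869 in relapsed and 510021 to 825688 in chronic IFNG libraries, against 277940 to 396059 in parental libraries. The endothelial sums of LLC1 were 856 to 993, 1533 to 1654 and 1306 to 1509 in the same order. Its leukocyte sums were 259 to 709, 186 to 222 and 128 to 173, and its mesothelial sums 1826 to 1991, 1591 to 1752 and 1900 to 2335. Of the mesothelial markers, Msln was 13.0-fold higher and Bnc1 1.26-fold lower in relapsed than in parental LLC1 tumours. Summed counts of 8 endothelial markers, mostly Flt1, were 3857 to 4221 in 1st relapse, 4766 to 5711 in 2nd relapse, 5797 to 6260 in late relapse and 2589 to 2869 in chronic IFNG KP libraries, against 3564 to 3826 in parental KP libraries, while Pecam1 and Kdr had at most 39.9 and 18.1 counts. Summed counts of 7 mesothelial markers, mostly Msln, were 12842 to 13029 in 1st relapse, 13163 to 13334 in 2nd relapse, 9743 to 11981 in late relapse and 18310 to 20615 in chronic IFNG KP libraries, against 16901 to 19022 in parental KP libraries, while Upk3b, Lrrn4 and Wt1 had at most 40.6, 17.9 and 18.1 counts. Bnc1, the other mesothelial marker tested in KP, was called lower than in parental tumours in these 4 groups. It was 5.83-fold lower in 1st relapse, 5.39-fold in 2nd relapse, 1.71-fold in late relapse and 1.34-fold in chronic IFNG tumours. In bulk libraries, fewer cells of a type and less RNA per cell cannot be told apart. The part of host cells in the keratin results was not tested.

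Of the type II genes on chromosome 15 (GRCm38), Krt7 (ENSMUSG00000023039) lies at chr15:101411043-101430313 on the plus strand, Krt5 (ENSMUSG00000061527) at chr15:101707070-101712898 on the minus strand and Krt8 (ENSMUSG00000049382) at chr15:101996698-102004482 on the minus strand. Krt18 (ENSMUSG00000023043), a type I gene, lies beside Krt8 at chr15:102028180-102032027 on the plus strand, away from the other type I genes. Those are on the minus strand of chromosome 11, Krt20 (ENSMUSG00000035775) at chr11:99428403-99438150, Krt19 (ENSMUSG00000020911) at chr11:100140810-100148665 and Krt14 (ENSMUSG00000045545) at chr11:100203162-100207548. Gm36026, a non-coding gene on the opposite strand, overlaps the start of Krt8 and averaged 19.2 to 90.0 normalised counts in 5 KP and 3 LLC1 groups, far under Krt8 itself, in libraries made with a stranded kit.

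Across the KP libraries, Krt8 and Krt18 varied together (Pearson r 0.95), while Krt7 and Krt20 did not vary with each other (0.03). Krt20 had an r of 0.81 with Krt18 and 0.64 with Krt8. The part of the promoters in these patterns was not tested. Promoters of these 4 genes are shown. They run 5′ to 3′ over 300 bases, 250 before and 50 after the RefSeq start (GRCm38.p6), at chr15:102004293-102004592 (minus strand, Krt8), chr15:102027966-102028265 (plus, Krt18), chr15:101412153-101412452 (plus, Krt7) and chr11:99438104-99438403 (minus, Krt20). Capitals mark matches on either strand to the TATA motif TATAAA, the GC box GGGCGG and the KLF-type motif CCACCC.
Krt8: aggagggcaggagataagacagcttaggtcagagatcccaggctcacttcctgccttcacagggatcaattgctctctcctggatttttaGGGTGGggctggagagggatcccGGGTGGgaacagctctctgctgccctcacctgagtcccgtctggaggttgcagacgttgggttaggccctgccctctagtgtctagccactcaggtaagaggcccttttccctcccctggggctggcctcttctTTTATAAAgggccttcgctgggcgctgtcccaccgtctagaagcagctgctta
Krt18: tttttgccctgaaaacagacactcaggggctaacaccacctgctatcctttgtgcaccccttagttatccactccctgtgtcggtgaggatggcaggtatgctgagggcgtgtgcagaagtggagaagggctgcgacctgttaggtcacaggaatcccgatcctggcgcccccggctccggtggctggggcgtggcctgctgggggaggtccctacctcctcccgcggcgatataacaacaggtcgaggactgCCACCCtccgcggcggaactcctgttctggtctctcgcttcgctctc
Krt7: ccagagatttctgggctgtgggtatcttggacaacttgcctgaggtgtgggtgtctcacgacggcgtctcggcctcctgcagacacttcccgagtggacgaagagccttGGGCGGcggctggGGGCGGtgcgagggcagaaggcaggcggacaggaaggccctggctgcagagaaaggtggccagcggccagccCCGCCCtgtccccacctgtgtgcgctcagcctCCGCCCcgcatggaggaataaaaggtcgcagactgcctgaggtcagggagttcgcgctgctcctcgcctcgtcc
Krt20: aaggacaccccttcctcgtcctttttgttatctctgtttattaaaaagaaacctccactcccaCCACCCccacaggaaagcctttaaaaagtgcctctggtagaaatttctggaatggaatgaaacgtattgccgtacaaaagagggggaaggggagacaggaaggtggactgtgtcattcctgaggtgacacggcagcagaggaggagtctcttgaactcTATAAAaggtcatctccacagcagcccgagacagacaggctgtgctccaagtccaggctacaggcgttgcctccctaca
Of 6 keratin promoters in the RefSeq table (Krt19 is named only), 2 held TATAAA, which 13.6% of 32851 RefSeq promoters of this length held. In Krt20 it began 29 bases before the start. In Krt8 it began 1 base before the RefSeq start and overlapped a minus-strand match. GGGCGG was found in 1 of the 6, Krt7, with 4 matches, against 35.7% of all promoters. CCACCC was found in 5 of the 6, against 31.5% of all promoters, and Krt7 had none. The Krt7 window and the Krt14 window (chr11:100205981-100206280, sequence not shown) lie wholly inside the gene spans given above. The Krt14 match is counted among the 5. No match to TGANTCA (AP-1), TTCNNNGAA (STAT) or to the core of the interferon-stimulated response element was found in any of the 6 windows, against 7.81%, 8.30% and 3.44% of all promoters. The windows of Krt7 and Krt18 were 66.3% and 61.3% G or C with 21 and 17 CpG, while those of Krt8 and Krt20 were 58.0% and 50.0% G or C with 6 CpG each; the medians of all promoters were 52.7% and 7 CpG.

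More of the 7 keratin genes were measurable in KP than in LLC1 tumours. Normalised counts were calculated back from the deposited log2 values, and a gene was tested where the mean of at least 1 group passed 144.2 counts in KP or 130.4 in LLC1. In KP, 6 of the 7 genes were tested, all but Krt5, which was listed at 0 to 30.3 counts across the 15 libraries. In LLC1, only Krt8 and Krt18 were tested. Krt7 had 3.46 to 47.0 counts and Krt19 0.883 to 97.2 counts across the 9 LLC1 libraries, and Krt20, Krt14 and Krt5 had at most 3.82, 2.14 and 2.01 counts. Krt19 in LLC1 was highest in the replicate 3 libraries of chronic IFNG (82.3 counts) and parental tumours (97.2 counts), and in the same libraries the epithelial adhesion gene Epcam had 25.1 and 28.3 counts, against at most 7.48 in the other 7 LLC1 libraries.

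**Figure D1:**
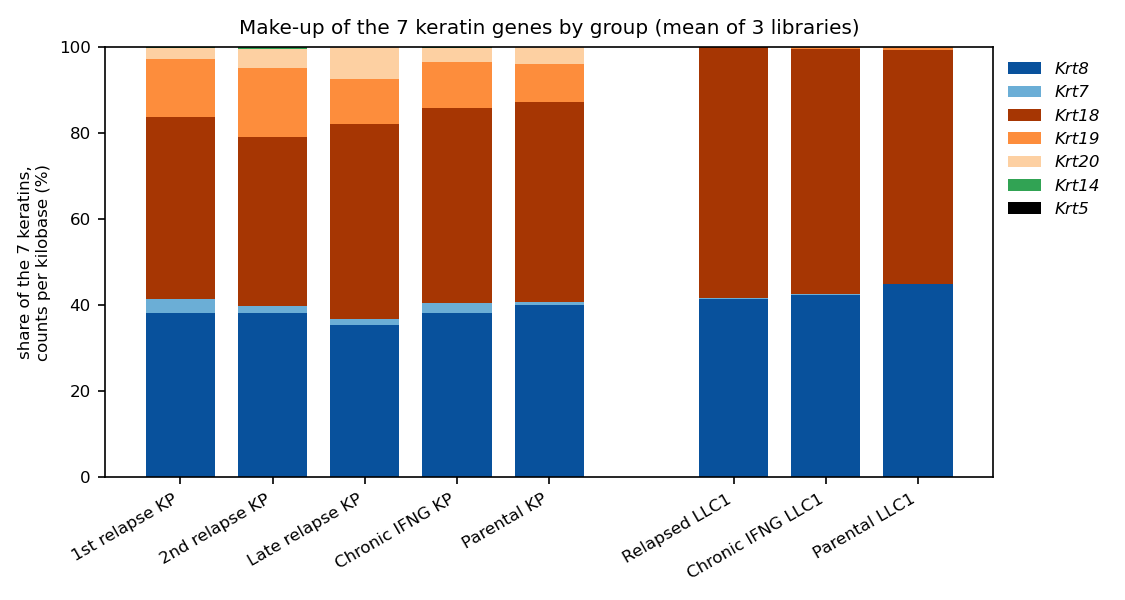
Make-up of the 7 keratin genes by group, as the share of their summed counts per kilobase of transcript (y axis, %), mean of 3 libraries per bar; blue marks type II genes. Krt18 and Krt8 fill most of each KP bar and nearly all of each LLC1 bar, while Krt19 reaches 16.2% in 2nd relapse against 8.87% in parental KP tumours.

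Per kilobase of transcript, Krt18 and Krt8 were the most abundant keratins of both lines. In parental KP libraries the levels per kilobase were 27943 ± 439 for Krt18 and 24165 ± 453 for Krt8, then 5346 ± 757 for Krt19, 2364 ± 177 for Krt20 and 378 ± 68.1 for Krt7 (SD, n = 3). In parental LLC1 libraries they were 2073 ± 213 for Krt18 and 1724 ± 262 for Krt8 (SD, n = 3). The Krt7 level rests on a long annotated transcript of 4094 bases, against 1437 to 2197 bases for the others, which lowers it on this scale. The 7 genes held 97.4% to 99.2% of the counts of all keratin genes in each KP library. They made up 0.552% ± 0.046 of all counts in 1st relapse, 0.811% ± 0.034 in 2nd relapse, 0.571% ± 0.017 in late relapse and 0.535% ± 0.051 in chronic IFNG tumours, against 0.442% ± 0.002 in parental KP tumours (SD, n = 3). The 3 libraries of 2nd relapse stood above all other KP libraries in this share.

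Krt8 and Krt18, the founding pair of simple epithelium, were most abundant in 2nd relapse tumours. Krt8 had 85704, 87802 and 95452 normalised counts in 2nd relapse libraries, against 47702, 47941 and 46301 in parental KP libraries. Every 2nd relapse library lay above every other KP library. The difference was 1.89-fold, 0.91 ± 0.08 on the deposited log2 scale (SE, limma, adjusted p 1.7e-07). Krt18, its type I partner, had 64628, 67454 and 69775 counts in 2nd relapse libraries, against 40551, 39427 and 40484 in parental libraries. It too was higher in all 3, by 1.68-fold (log2 difference 0.74 ± 0.07, limma adjusted p 3.4e-07).

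The pair was closer to the parental level in the other KP groups. In 1st relapse libraries Krt8 had 53869, 45623 and 55676 counts, a range that spans the parental values, with a log2 difference of 0.12 ± 0.08 (limma adjusted p 0.23). Krt18 in 1st relapse had 42817, 38159 and 44716 counts, again overlapping parental tumours (0.06 ± 0.07, limma adjusted p 0.52). In late relapse Krt18 had 50865, 49862 and 54704 counts, all above parental tumours, and was higher by 1.29-fold (0.36 ± 0.07, limma adjusted p 0.00053). Krt8 in late relapse had 55231, 53850 and 55827 counts, also all above, by 1.16-fold (0.21 ± 0.08, limma adjusted p 0.036). That call was lost when any of the 6 libraries was left out, with adjusted p 0.056 to 0.095, and without a filter (0.069) or with median centring (0.053). Chronic IFNG libraries had 52019.7, 47562 and 59365 counts of Krt8 (0.16 ± 0.08, limma adjusted p 0.19) and 45258, 42521 and 50749 counts of Krt18 (0.20 ± 0.07, limma adjusted p 0.061). For Krt18 all 3 lay above the parental libraries without passing the threshold.

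Krt19, a type I keratin of ducts and glands that lacks most of the tail domain of other keratins, was higher in each of the KP groups than in parental tumours. It had 14302, 12999 and 17218 counts in 1st relapse, 30254, 29628 and 31494 in 2nd relapse, 11556, 12574 and 14755 in late relapse and 12317, 10828 and 12537 in chronic IFNG libraries, against 7799, 7677 and 9801 in parental libraries. No library of these 4 groups fell within the parental range. The difference was 3.62-fold in 2nd relapse (log2 difference 1.79 ± 0.11, limma adjusted p 3.3e-09). It was 1.76-fold in 1st relapse (0.78 ± 0.11, limma adjusted p 4.7e-05), 1.54-fold in late relapse (0.59 ± 0.11, limma adjusted p 0.0004) and 1.41-fold in chronic IFNG tumours (0.48 ± 0.11, limma adjusted p 0.0063). Late relapse and chronic IFNG, neighbours in this order, did not differ beyond their spread (0.11 ± 0.11, limma adjusted p 0.41).

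**Figure D2:**
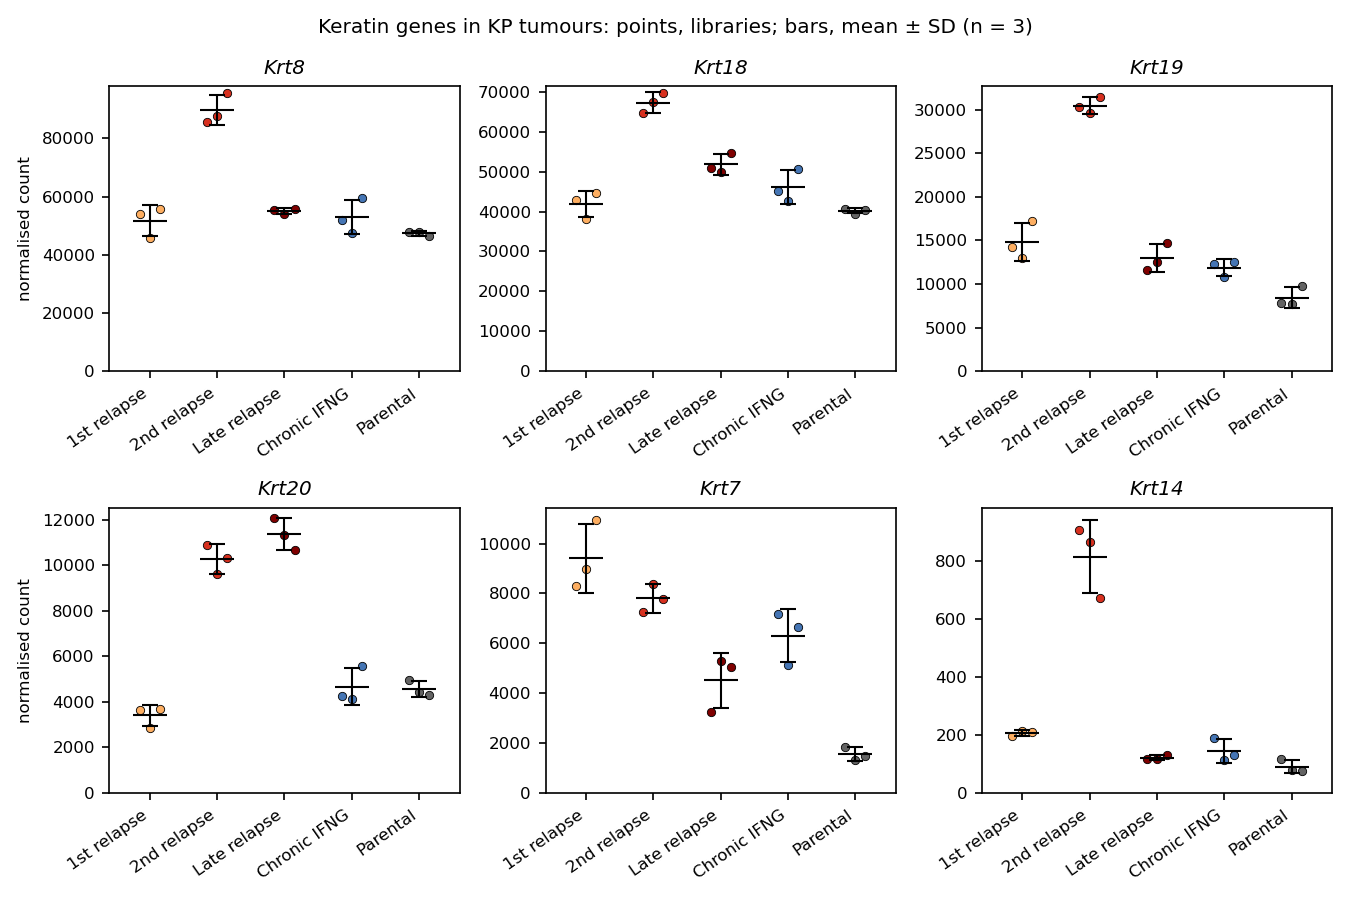
Normalised counts (y axes, from 0) of 6 keratin genes in the 15 KP libraries; points are libraries, long bars the mean and whiskers the SD of 3. Krt8, Krt18, Krt19 and Krt14 are highest in 2nd relapse, Krt7 is lowest in parental tumours, and Krt20 is high in 2nd and late relapse.

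Krt7, a type II keratin of ductal, airway and transitional epithelium, showed the largest fold of the 6 tested genes against parental tumours in 3 of the 4 KP groups, all but 2nd relapse, where Krt14 was ahead. It had 8298, 8982 and 10961 counts in 1st relapse, 7245, 8393 and 7758 in 2nd relapse, 3232, 5271 and 5030.0 in late relapse and 7168, 5116 and 6637 in chronic IFNG libraries, against 1855, 1311 and 1476 in parental libraries. Even the lowest of the 12 libraries was above the highest parental one. The difference was 6.08-fold in 1st relapse (log2 difference 2.26 ± 0.16, limma adjusted p 6.2e-08), 5.04-fold in 2nd relapse (2.01 ± 0.16, limma adjusted p 4.6e-08), 2.92-fold in late relapse (1.27 ± 0.16, limma adjusted p 1.3e-05) and 4.08-fold in chronic IFNG tumours (1.72 ± 0.16, limma adjusted p 5.1e-06).

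The order of the groups for Krt7 was unlike that for Krt8 and Krt18. Krt7 was 1.49-fold higher in 1st relapse than in chronic IFNG tumours (0.54 ± 0.16, limma adjusted p 0.019), a call lost without chronic IFNG replicate 2 (0.092) or without 1st relapse replicate 3 (0.086). Against 1st relapse it was 2.09-fold lower in late relapse (-0.99 ± 0.16, limma adjusted p 0.00017), and against 2nd relapse 1.73-fold lower (-0.75 ± 0.16, limma adjusted p 0.0011). Late relapse was also 1.40-fold lower than chronic IFNG tumours (-0.45 ± 0.16, limma adjusted p 0.028), with overlapping libraries. This last call was lost without chronic IFNG replicate 1 (0.11), chronic IFNG replicate 3 (0.083) or late relapse replicate 1 (0.15). It was also lost in a fit of the 2 groups only (limma adjusted p 0.065). Between 2nd and 1st relapse the difference did not pass (-0.25 ± 0.16, limma adjusted p 0.19). It passed after quantile normalisation (-0.55, limma adjusted p 0.011) and in a fit of the 2 groups only (limma adjusted p 0.049). Summed counts of 7 epithelial markers were 17830 to 22161 in 1st relapse, 18482 to 20077 in 2nd relapse, 8812 to 11239 in late relapse and 10894 to 15244 in chronic IFNG libraries, against 4596 to 5345 in parental libraries. Their part in the Krt7 differences was not tested.

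Krt20, a type I keratin of intestinal and gastric epithelium and of bladder umbrella cells, divided the relapse groups. It had 3640.4, 2847 and 3703 counts in 1st relapse, 10904, 9607 and 10330.3 in 2nd relapse, 12078, 11315 and 10675 in late relapse and 4249, 4115 and 5588 in chronic IFNG libraries, against 4945, 4409.9 and 4309.9 in parental libraries. The 6 libraries of 2nd and late relapse lay above all others, and the 3 of 1st relapse below all others. Krt20 was 2.26-fold higher in 2nd relapse than in parental tumours (log2 difference 1.09 ± 0.10, limma adjusted p 3.8e-07) and 2.49-fold higher in late relapse (1.22 ± 0.10, limma adjusted p 3.3e-07). In 1st relapse it was lower, at 0.746 times the parental level (-0.38 ± 0.10, limma adjusted p 0.0077). In chronic IFNG tumours it overlapped parental tumours (0.02 ± 0.10, limma adjusted p 0.93).

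Directly compared, Krt20 was 3.03-fold higher in 2nd than in 1st relapse (1.46 ± 0.10, limma adjusted p 2.4e-08) and 3.34-fold higher in late than in 1st relapse (1.60 ± 0.10, limma adjusted p 6.5e-08). The difference between late and 2nd relapse did not pass (0.14 ± 0.10, limma adjusted p 0.28), though after quantile normalisation it was 0.32 and passed (limma adjusted p 0.017). Against chronic IFNG tumours, Krt20 was 1.37-fold lower in 1st relapse (-0.40 ± 0.10, limma adjusted p 0.011), a call lost without 1st relapse replicate 2 (0.0504) or in a fit of the 2 groups only (0.051). It was 2.21-fold higher in 2nd relapse (1.07 ± 0.10, limma adjusted p 5.7e-07) and 2.44-fold higher in late relapse (1.20 ± 0.10, limma adjusted p 5.9e-07). The endothelial marker sum given above was likewise highest in the 2nd and late relapse libraries. That sum is mostly Flt1, the 1 gene of the 8 that passed the filter in KP. Its part in the Krt20 differences was not tested. As a share of the 7 genes per kilobase, Krt20 made up 7.43% ± 0.68 in late relapse against 3.92% ± 0.28 in parental tumours (SD, n = 3).

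Krt14 and Krt5 are the basal pair of skin and other stratified epithelia. Krt14, the type I partner, was far below the simple keratins: 195, 213 and 209.7 counts in 1st relapse, 906, 864 and 669.7 in 2nd relapse, 115, 116 and 131 in late relapse and 190.2, 112 and 131 in chronic IFNG libraries, against 116, 79.2 and 74.7 in parental libraries. The 2nd relapse libraries stood apart from the other 12. The gene passed the filter on low values through 1st and 2nd relapse, where it is high. Late relapse averaged 120.8 counts, under the filter at 144.2, and chronic IFNG averaged 144.5, at its edge. Krt14 was 9.04-fold higher in 2nd relapse (log2 difference 1.41 ± 0.08, limma adjusted p 8.9e-10) and 2.29-fold higher in 1st relapse (0.39 ± 0.08, limma adjusted p 0.00066) than in parental tumours. The log2 differences of such a low gene are compressed on the deposited scale. In late relapse (0.13 ± 0.08, limma adjusted p 0.17) and chronic IFNG tumours (0.20 ± 0.08, limma adjusted p 0.073) it did not pass. The chronic IFNG difference did pass on the log2(count + 10) scale (0.62, limma adjusted p 0.027), and also without parental replicate 1 (limma adjusted p 0.047) or chronic IFNG replicate 2 (0.035).

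Krt5, the type II partner of Krt14, did not follow it. Krt5 had 2.9, 5.2 and 3.5 counts in the 2nd relapse libraries, against 6.5, 4.3 and 16.2 in parental libraries, and was not tested. Trp63, the basal-cell transcription factor, was also low, with 2.17 to 5.76 counts in 2nd relapse and 3.22 to 9.14 in parental libraries. Summed counts of the 7 keratinocyte markers in the KP table, mostly Ivl (involucrin), were 409 to 752 in 1st relapse, 695 to 817 in 2nd relapse, 709 to 995 in late relapse and 204 to 260 in chronic IFNG libraries, against 151 to 225 in parental libraries. Their part in the Krt14 differences was not tested.

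**Figure D3:**
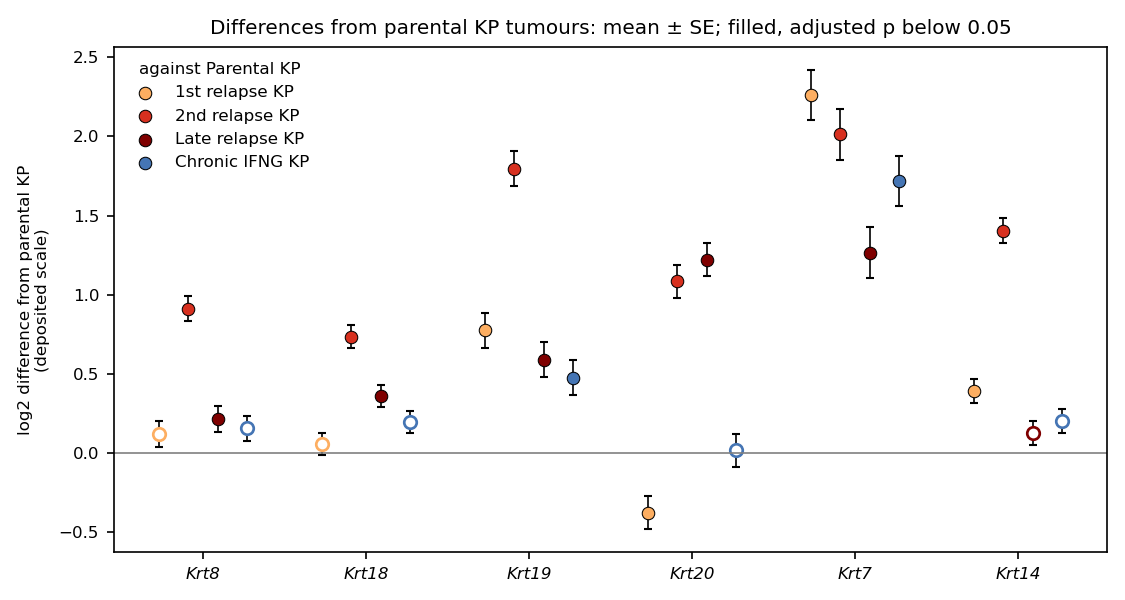
Log2 difference from parental KP tumours on the deposited scale (y axis) for 6 keratin genes in 1st, 2nd and late relapse and chronic IFNG tumours, with SE; filled points have an adjusted p below 0.05. All 4 points are well above 0 for Krt7, and Krt20 is below 0 in 1st relapse and above 1 in 2nd and late relapse.

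Counted over the 6 genes tested in KP, all 6 were higher in 2nd relapse than in parental tumours, where 36.8% of the 11193 tested genes were called higher and 29% lower. Their median log2 difference was 1.25, against 0.03 over all tested genes. In late relapse 5 were higher (31% of tested genes, with 25.9% lower) with a median of 0.48, against 0.014 over all. In 1st relapse 3 were higher (25.4% of tested genes) and 1, Krt20, lower (25.5%), with a median of 0.26 against -0.006. In chronic IFNG tumours 2, Krt7 and Krt19, were higher (12.8% of tested genes, with 9% lower), with a median of 0.20 against -0.008. These 4 comparisons share the 3 parental libraries, so their likeness to each other is not evidence of its own. Krt14 is counted among the 6 here and below, although it passed the filter through groups where it is high.

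Between the relapse groups, 5 of the 6 genes were higher in 2nd than in 1st relapse (34.3% of tested genes), all but Krt7, with 1.73-fold for Krt8, 1.61-fold for Krt18, 2.05-fold for Krt19 and 3.95-fold for Krt14 (limma adjusted p at most 1.7e-06). Against 2nd relapse, 5 were lower in late relapse (29.7%), all but Krt20, by 1.63-fold for Krt8, 2.35-fold for Krt19 and 6.73-fold for Krt14, with Krt18 at 0.770 times the 2nd relapse level (limma adjusted p at most 0.0011). Against 1st relapse, late relapse was higher for Krt20 and Krt18 (24.6% of tested genes) and lower for Krt7 and Krt14 (23.5%). Krt18 there differed by 1.24-fold (0.30 ± 0.07, limma adjusted p 0.0026). Against chronic IFNG tumours, 5 genes were higher in 2nd relapse (35.1% of tested genes), all but Krt7. Late relapse had 1 higher, Krt20 (25.8%), and 1 lower, Krt7 (24.6%). Krt7 was the 1 higher gene (15.8%) and Krt20 the 1 lower gene (15.1%) in 1st relapse.

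In LLC1 tumours the Krt8 and Krt18 pair was all that was measurable. Krt18 had 4093, 4286 and 4142 counts in relapsed libraries, against 2664, 3276 and 2996 in parental libraries. All relapsed libraries were above all parental ones, by 1.40-fold (log2 difference 0.43 ± 0.08, limma adjusted p 0.002). Krt8 had 3802, 4248 and 4084 counts in relapsed and 2805, 3519 and 3802 in parental libraries, which meet at their edge, a difference of 0.24 ± 0.12 that did not pass (limma adjusted p 0.12). Of the 2 genes, 1 was called higher, where 25.9% of 10581 tested genes were higher and 19.5% lower, and the median log2 difference of the 2 was 0.33, against 0.025 over all tested genes.

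Chronic IFNG LLC1 libraries had the lowest pair values of the line. Krt8 had 2194, 2528 and 3186 counts there (log2 difference from parental tumours -0.31 ± 0.12, limma adjusted p 0.078) and Krt18 2353, 2416 and 2992 counts (-0.18 ± 0.08, limma adjusted p 0.15). Both overlapped the parental libraries, and neither passed the threshold at which 24.5% of tested genes were called, 9.03% higher and 15.5% lower. The median of the 2 was -0.24, against -0.016 over all tested genes. At an unadjusted p below 0.05, 1 of the 2 passed, Krt8 (limma p 0.023), as did 38.2% of all tested genes. Without chronic IFNG replicate 3 both were called lower, Krt8 with adjusted p 0.015 and Krt18 with 0.023, and without parental replicate 1 Krt8 was (0.036). Set against chronic IFNG tumours, relapsed tumours were higher for both genes, where 31.5% of tested genes were called higher. Krt18 differed by 1.61-fold (0.61 ± 0.08, limma adjusted p 0.00017) and Krt8 by 1.53-fold (0.55 ± 0.12, limma adjusted p 0.0027).

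**Figure D4:**
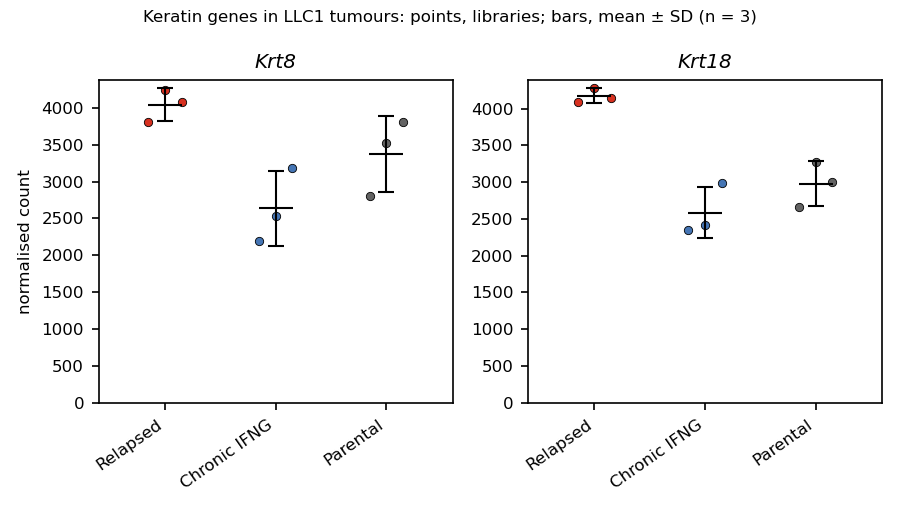
Normalised counts (y axes, from 0) of Krt8 and Krt18 in the 9 LLC1 libraries; points are libraries, long bars the mean and whiskers the SD of 3. Relapsed libraries lie between 3802 and 4286 for both genes, and the Krt18 values of relapsed tumours are above all others.

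The balance within the pair was read within each library. The log2 ratio of Krt8 to Krt18 counts, which does not depend on library scaling, was 0.30 ± 0.04 in 1st relapse, 0.41 ± 0.04 in 2nd relapse, 0.09 ± 0.05 in late relapse and 0.20 ± 0.03 in chronic IFNG tumours, against 0.24 ± 0.04 in parental KP tumours (SD, n = 3). The 2nd relapse ratios were all above and the late relapse ratios all below the parental ones (two-sided exact permutation p 0.1 each, the smallest that 3 against 3 libraries can give). In LLC1 the ratio was -0.05 ± 0.05 in relapsed and 0.02 ± 0.10 in chronic IFNG tumours, against 0.17 ± 0.15 in parental tumours. The exact permutation p was 0.1 for relapsed and 0.2 for chronic IFNG LLC1 tumours. Summed per kilobase, type I exceeded type II keratins 1.72-fold in late relapse and 1.46-fold in parental KP tumours (exact permutation p 0.1).

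Across the 15 KP libraries, Krt8 and Krt18 had a Pearson r of 0.95, Krt8 and Krt19 of 0.93 and Krt19 and Krt14 of 0.93, while Krt7 and Krt20 had an r of 0.03. In the 9 LLC1 libraries Krt8 and Krt18 had an r of 0.92. These libraries share groups and differ in depth, so r mostly describes the pattern over groups. Among 6943 well-expressed KP genes the patterns most like each keratin included those of Smpd3 (0.99), Eps8l3 (0.99) and Elf3 (0.99) for Krt7, Csgalnact2 (0.98) for Krt8, Atp6v0a1 (0.97) for Krt18, Cant1 (0.98) for Krt19, Fam83f (0.98) for Krt20 and Jag2 (0.98) for Krt14. Elf3 is an epithelial ETS-family transcription factor and Jag2 a Notch ligand.

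Neighbouring genes of the keratins are described for 2nd relapse against parental KP tumours. In that comparison 36.8% of all tested genes were called higher and 29% lower, with a median log2 difference of 0.03. Within 1 Mb on chromosome 15, 9 of 35 tested non-keratin genes were higher and 12 lower in 2nd relapse than in parental KP tumours, with a median log2 difference of 0.00 (0.29 over the 469 tested genes of chromosome 15). Within 1 Mb on chromosome 11, 21 of 43 were higher and 4 lower, with a median of 0.12, as over the whole of chromosome 11 (0.12).

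Outside these 7, 45 other keratin genes were in the KP table and 5 passed the filter on low values. Krt23, a type I keratin, had 1263, 919.9 and 1169 counts in 1st relapse, 3748, 3678 and 3853 in 2nd relapse, 2856, 2535 and 2879.6 in late relapse and 779, 509 and 817 in chronic IFNG libraries, against 256, 186 and 258 in parental libraries. The groups did not overlap with parental tumours, at 4.79-fold, 16.1-fold, 11.8-fold and 3.01-fold in that order (limma adjusted p at most 4.4e-05). Krt79, a type II keratin of the hair follicle canal, had 833, 776 and 729 counts in 2nd relapse, against 20.0, 21.3 and 16.7 in parental libraries (40.3-fold, log2 difference 1.79 ± 0.06, limma adjusted p 8.6e-12). Krt13, a type I keratin of non-cornifying stratified epithelium, averaged 159.7 ± 4.3 counts in 2nd relapse and 24.5 ± 13.0 in parental tumours (6.52-fold, limma adjusted p 4.9e-06). Krt79 and Krt13 passed the filter only through 2nd relapse.

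Krt6a, a type II keratin induced in injured epidermis, went the other way. It averaged 24.8 ± 18.4 counts in 1st relapse, 96.4 ± 22.0 in 2nd relapse and 37.4 ± 15.5 in late relapse, against 310.6 ± 45.6 in parental tumours (SD, n = 3), or 12.5-fold, 3.22-fold and 8.30-fold lower (limma adjusted p at most 1.4e-05). In chronic IFNG tumours it averaged 348.5 ± 53.3 counts and did not pass. Krt6a passed the filter on low values only through the parental and chronic IFNG groups, where it is high. Krt80 was 2.84-fold lower in 2nd relapse (limma adjusted p 1.3e-05) and 1.58-fold lower in late relapse (0.0059) than in parental tumours. Krt80 is also a low gene, and its late relapse log2 difference was only -0.22 on the deposited scale. It passed the filter only through groups where it is higher than in 2nd and late relapse. In LLC1, 28 other keratin genes were in the table and none passed the filter, so none was tested.

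**Figure D5:**
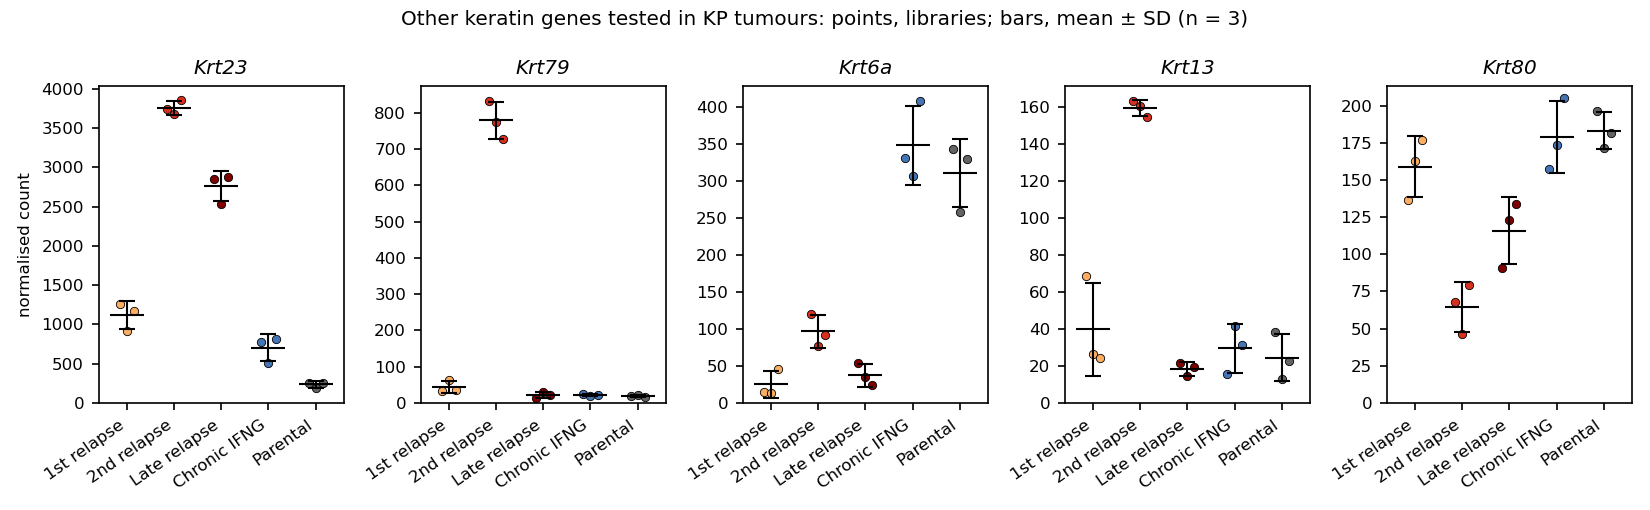
Normalised counts (y axes, from 0) of the 5 other keratin genes tested in KP libraries; points are libraries, long bars the mean and whiskers the SD of 3. Krt79 and Krt13 are highest in 2nd relapse, and Krt6a is above 250 counts in all chronic IFNG and parental libraries.

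Genes of epithelial identity, such as junction and splicing factor genes, were mostly higher in these KP groups than in parental tumours. For this and the next lists, the shares of all tested genes called higher and lower than in parental tumours were 25.4% and 25.5% in 1st relapse, 36.8% and 29% in 2nd relapse, 31% and 25.9% in late relapse and 12.8% and 9% in chronic IFNG tumours, with median log2 differences of -0.006, 0.03, 0.014 and -0.008. Of 11 tested genes of this list, 10 were higher and none lower in 1st relapse than in parental tumours (median log2 difference 1.16), led by the adhesion gene Epcam at 9.72-fold. In 2nd relapse 7 were higher and 1 lower (median 0.67), with the adherens junction gene Cdh1 at 4.33-fold and Epcam at 1.94-fold. Late relapse had 7 higher and none lower (0.38) and chronic IFNG tumours 9 higher and none lower (0.69). Against 1st relapse, all 11 were lower in late relapse (median -0.76, where 23.5% of all tested genes were lower). Krt7 and Krt14 were lower there too, while Krt20 and Krt18 were higher. In 2nd against 1st relapse, 4 of the 11 were higher (34.3% of all tested genes) and 5 lower, with a median of -0.42 against 0.02 over all. In that comparison 5 of the 6 tested keratins were higher.

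Epithelial transcription factors showed 9 higher and 1 lower of 13 tested in 1st relapse (median 0.49), 9 higher and 2 lower in 2nd relapse (0.75), 10 higher and 2 lower in late relapse (0.35) and 9 higher and 1 lower in chronic IFNG tumours (0.49). Hnf4a, a nuclear receptor of gut and liver epithelium, was higher by 8.23-fold in 1st, 11.4-fold in 2nd and 7.76-fold in late relapse and by 5.35-fold in chronic IFNG tumours. Elf3 was higher by 9.02-fold, 7.63-fold, 3.64-fold and 6.61-fold in the same order. All 8 limma adjusted p-values were at most 1.1e-05.

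Desmosomes and plakins anchor keratin filaments at the cell border. Of 12 tested genes, 8 were higher and 3 lower in 1st relapse, 8 higher and 2 lower in 2nd relapse, 4 higher and 4 lower in late relapse and 9 higher and 3 lower in chronic IFNG than in parental KP tumours (median log2 differences 0.49, 0.57, 0.14 and 0.47). In late relapse these counts are near the shares of all tested genes. Dsp, the desmoplakin that binds keratins directly, was 5.66-fold, 7.94-fold, 2.87-fold and 3.35-fold higher in these groups (limma adjusted p at most 4.1e-05). Pkp1, a plakophilin of stratified epithelium, was 7.90-fold lower in 2nd relapse (limma adjusted p 6.1e-09). Of 10 genes for proteins that bind or cleave keratins, 7 were higher and 1 lower in 2nd relapse (median 0.33). Among the 7, Ywhaz, for a 14-3-3 protein, was at 2.84-fold. Fam83h, whose product recruits casein kinase to keratin filaments, was at 3.20-fold. Of the 10 genes, 3 were higher and 3 lower in 1st relapse, 5 and 1 in late relapse and 3 and 1 in chronic IFNG tumours (medians -0.09, 0.13 and 0.01).

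Other intermediate filament genes had 1 higher and 2 lower of 6 tested in 1st relapse, 3 and 2 in 2nd relapse, 2 and 2 in late relapse and 0 and 3 in chronic IFNG tumours (median log2 differences -0.03, 0.14, -0.05 and -0.10). Vim (vimentin), the mesenchymal filament protein, was 1.37-fold lower in 1st relapse (-0.46, limma adjusted p 1.7e-05) and 1.17-fold lower in chronic IFNG tumours (-0.22, limma adjusted p 0.014) than in parental KP tumours. Vim was not called in late relapse. Nefl was lower in all 4 groups, by 7.80-fold in 1st, 7.31-fold in 2nd and 3.61-fold in late relapse and 2.18-fold in chronic IFNG tumours. It is a low gene that passed the filter through parental tumours, where it is high. Nes (nestin) was 3.12-fold higher in late relapse (limma adjusted p 2.9e-08).

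Few of these genes could be tested in LLC1 tumours. Of the 13 epithelial identity genes only Ocln, a tight junction gene, was tested, at 5.66-fold higher in relapsed tumours (log2 difference 1.15, limma adjusted p 1.5e-07) and 1.70-fold lower in chronic IFNG tumours (-0.22, limma adjusted p 0.014). Epcam and Cdh1 had at most 28.3 and 17.4 counts in any LLC1 library. In relapsed tumours 1 of 5 epithelial transcription factors was higher and 4 lower, 3 of 6 desmosome and plakin genes were higher and 1 lower, and 1 of 8 keratin-binding genes was higher and 2 lower. Their median log2 differences were -0.47, 0.20 and -0.01, against 0.025 over all tested genes, of which 25.9% were higher and 19.5% lower. In chronic IFNG tumours the counts were 0 and 1, 1 and 3, and 0 and 3, with medians of -0.02, -0.13 and -0.07, against -0.016 over all tested genes, of which 9.03% were higher and 15.5% lower. Vim was 1.29-fold lower in relapsed LLC1 tumours (-0.36, limma adjusted p 0.0035), and Jup (plakoglobin) 3.54-fold lower (limma adjusted p 0.0056).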

How the data were processed

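The authors deposited log2 values, variance-stabilised to judge by their spread and floor, in 1 table per line. Tools in the submitters' processing notes are DESeq2 1.34.0, Salmon 1.8.0 and cutadapt 2.9, with the build GRCm38/mm10 and no roles. Symbols and coordinates came from GENCODE vM21. The lowest value of each table was taken as a count of 0 and normalised counts were calculated back; 75.4% to 81.0% of low values per library fell within 0.15 reads of a whole number, against 30% by chance, and this spacing gave the depth. Folds use these counts, and log2 differences and tests the deposited values.

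Genes with a group mean 1 log2 unit or more over that floor were kept (10581 in LLC1, 11193 in KP) and fitted, 1 model per line over its groups, by limma 3.58.1 with a mean-variance trend in R 4.3.3. Benjamini-Hochberg adjustment ran over kept genes in each of 13 comparisons, and adjusted p below 0.05 was called. The fit was tested on simulated data. The members and gene lists were chosen with earlier results of these data known; up to 4 called genes per list with the largest differences from parental tumours could be named. A few items are not reported here. The labels give no pairing of replicate numbers, and the main fit used none. Deviations of same-numbered libraries correlated above 0.1 in all 3 pairs only for 1st relapse against parental KP tumours (0.15, 0.11 and 0.21). A single pair of late relapse and parental KP libraries reached 0.27. Differently numbered libraries were not compared, so these values cannot show pairing. Python 3.11.15 and scipy 1.17.1 gave exact tests. Replicate pairs differed by more than counting noise. Alternatives were fits without a filter or with one at 3 log2 units, without the trend, with array weights or a replicate block, on the 2 groups only, on quantile-normalised, median-centred or log2(count + 10) values, and without each library.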

Additional observations from a re-analysis of the deposited data

Results flagged for a closer look

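Krt20 moved in opposite directions from parental KP tumours in different relapse groups, which flagged it. It was higher in 2nd relapse (log2 difference 1.09, higher in 3 of 3 libraries) and in late relapse (1.22, 3 of 3), and lower in 1st relapse (-0.38, lower in 3 of 3). The test of the difference itself gave 1.46 ± 0.10 for 2nd against 1st relapse (limma adjusted p 2.4e-08) and 1.60 ± 0.10 for late against 1st relapse (limma adjusted p 6.5e-08). These tests use the same relapse libraries that raised the flag, so they give its size and no separate support.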

How the results depend on the processing

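Counts of keratin genes called stayed within 1.5 times the reported count under the alternatives tried, except as follows. For chronic IFNG against parental LLC1 (0 reported), array weights gave 2 and the replicate block 1. For relapsed against parental LLC1 (1 reported), the replicate block gave 2, adding Krt8. In both of these LLC1 comparisons the deviations of same-numbered libraries correlated negatively in all 3 pairs. With the 2 groups only, 1st relapse against chronic IFNG KP and late relapse against chronic IFNG KP gave 1 each (2 reported), losing Krt20 and Krt7 in that order. The block changed no other count by that much, though it added 4 KP calls: Krt18 in chronic IFNG against parental tumours (adjusted p 0.024), Krt19 in 1st relapse against chronic IFNG (0.0078), Krt18 in late relapse against chronic IFNG (0.024) and Krt19, lower, in late against 1st relapse (0.045). With 1 library left out, counts ran from 0 to 2 for chronic IFNG against parental LLC1, 2 to 4 for chronic IFNG against parental KP, 1 to 3 for 1st relapse against chronic IFNG KP, 1 to 2 for late relapse against chronic IFNG KP, 4 to 5 for 1st relapse against parental KP and 4 to 4 for late relapse against parental KP (5 reported). Quantile normalisation called Krt8 (0.26) and Krt18 (0.19) higher in 1st relapse than in parental KP tumours and ended the Krt18 call in late against 1st relapse (0.08). It also called Krt18 in chronic IFNG against parental KP (0.18), Krt19 in 1st relapse against chronic IFNG KP (0.33), Krt7 in 2nd against 1st relapse (-0.55), Krt19 in late against 1st relapse (-0.36) and Krt20 in late against 2nd relapse (0.32). A fit of the 2 groups only added Krt7 in 2nd relapse against chronic IFNG KP (0.29, adjusted p 0.044).

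Signs turned only in differences that had not passed. Quantile normalisation gave 0.0095 for Krt18 and 0.12 for Krt8 in 1st relapse against chronic IFNG KP, -0.030 for Krt19 in late relapse against chronic IFNG KP and -0.10 for Krt8 in late against 1st relapse. Median centring gave -0.00789 for Krt20 in chronic IFNG against parental KP, and leaving out 1 library -0.11 to 0.091 there. With 1 library left out, Krt8 ran from -0.016 to 0.14 in late relapse against chronic IFNG KP and from -0.11 to 0.053 in 1st relapse against chronic IFNG KP. Apart from the library-out sets, 551 of the single-gene values kept direction and side of the threshold, 20 newly passed, 5 no longer passed and 5 turned sign; the causes were not tested.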
